A study of Mus musculus with 27 samples.

Results

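Glutathione synthesis and recycling in the mouse ovary was followed through 8 genes, Gclc, Gclm, Gss, Gsr, Slc7a11, Slc3a2, Glrx and Glrx2, out of 51789 gene identifiers in the count table. They were chosen by name, as the identifiers that map to these symbols in the GENCODE M21 mouse annotation. The choice was made with earlier results of these data known. All 8 mapped, and all 8 were abundant enough to be tested in every comparison. The study measured polyadenylated RNA from whole ovaries of young and aged mice with a kit that counts 3' ends of transcripts (QuantSeq). Experiment 1 had 5 libraries from young untreated mice, 4 from aged untreated mice and 4 from aged mice given TRi-1, a selective inhibitor of thioredoxin reductase. Experiment 2 had 5 libraries from young untreated mice, 5 from aged untreated mice and 4 from aged mice given auranofin, a gold compound that also inhibits thioredoxin reductase. Age in weeks, strain, genotype, dose, route and length of treatment were not given in the sources used here. Each library carries a mouse age, a treatment and a replicate number in its label. Nothing in the labels says whether 2 libraries could come from 1 animal, so p-values measure the spread between these libraries.

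Glutathione is a tripeptide that cells use to neutralise peroxides and electrophiles. Glutamate-cysteine ligase, made of a catalytic subunit (Gclc) and a modifier subunit (Gclm), performs the first and rate-limiting step, and glutathione synthetase (Gss) the final step. Cysteine reaches the cell largely as cystine through a carrier formed by Slc7a11 and its heavy chain Slc3a2. Glutathione reductase (Gsr) turns oxidised glutathione back into the reduced form with NADPH, and glutaredoxins (Glrx in the cytosol, Glrx2 largely in mitochondria) use reduced glutathione to remove it from modified protein cysteines. In the ovary, glutathione is best known for protecting oocytes and granulosa cells from oxidants. Several of these genes are known targets of the transcription factors NRF2 and ATF4, which bind antioxidant and amino acid response elements respectively.

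Promoter sequences of the 2 genes with the largest fold changes among the 8, Gclm after auranofin and Slc7a11 between auranofin-treated aged and young ovaries, are shown because each holds a match to 1 of these elements. They come from RefSeq (build GRCm38.p6), run from 250 bases before to 50 bases after the transcript start, and are written 5' to 3' on the gene's strand. Capitals mark the matches, TGACNNNGC or its reverse complement in Gclm and TGATGCAA or its reverse complement in Slc7a11.
Gclm, chr3:122245307-122245606, plus strand: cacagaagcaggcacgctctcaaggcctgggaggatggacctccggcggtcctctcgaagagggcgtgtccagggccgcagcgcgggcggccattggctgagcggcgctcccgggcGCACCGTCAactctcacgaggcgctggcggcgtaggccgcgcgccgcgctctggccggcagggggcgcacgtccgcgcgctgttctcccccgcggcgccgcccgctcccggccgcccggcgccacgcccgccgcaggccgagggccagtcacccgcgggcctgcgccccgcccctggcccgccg
Slc7a11, chr3:50443564-50443863, minus strand: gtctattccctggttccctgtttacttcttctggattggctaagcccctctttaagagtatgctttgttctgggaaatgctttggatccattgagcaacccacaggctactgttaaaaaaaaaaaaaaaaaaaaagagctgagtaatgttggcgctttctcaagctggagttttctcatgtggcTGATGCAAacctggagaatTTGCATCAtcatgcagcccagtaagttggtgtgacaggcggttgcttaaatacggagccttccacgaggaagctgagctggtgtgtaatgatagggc

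The antioxidant response element core was searched as TGACNNNGC on both strands, and the amino acid response element as TGATGCAA on both strands. In Gclm the core lies on the reverse strand, from base -134 to base -126 relative to the start. In Slc7a11 the amino acid element lies at -66 to -59 and, reversed, at -47 to -40. The core occurs in 12.4% of 32851 RefSeq promoter windows of this length and the amino acid element in 0.895%. Windows existed for 6 of the 8 genes, Gclm, Gss, Slc7a11, Slc3a2, Glrx (2 windows) and Glrx2 (4 windows). Apart from those shown, the windows of Gss, Slc3a2, Glrx and Glrx2 held neither set of letters. A match is a description of the letters in a window, not of binding.

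Library totals ran from 6460903 to 14814381 counts. Levels are given in CPM, counts relative to a common library total, on library sizes scaled by TMM over all 27 libraries. Defining markers of oocytes, granulosa, luteal and stromal cells were detected in both young groups, except that Amh had no count in experiment 2. Replicate 3 of the experiment 2 young group stood apart from its group, with a summed oocyte marker level of 4.11 CPM and a summed luteal marker level of 42.5 CPM, against group medians of 66.8 and 2794 CPM. Replicate 4 of the auranofin group was the farthest from its own group among all 27 libraries and had the highest B and plasma cell marker sum, 24344 CPM, against a group median of 3008 CPM. Replicate 3 of the experiment 1 aged group had a summed hepatocyte marker level of 2130 CPM, against a group median of 176 CPM. Results that change without such a library are given both ways.

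**Figure D1:**
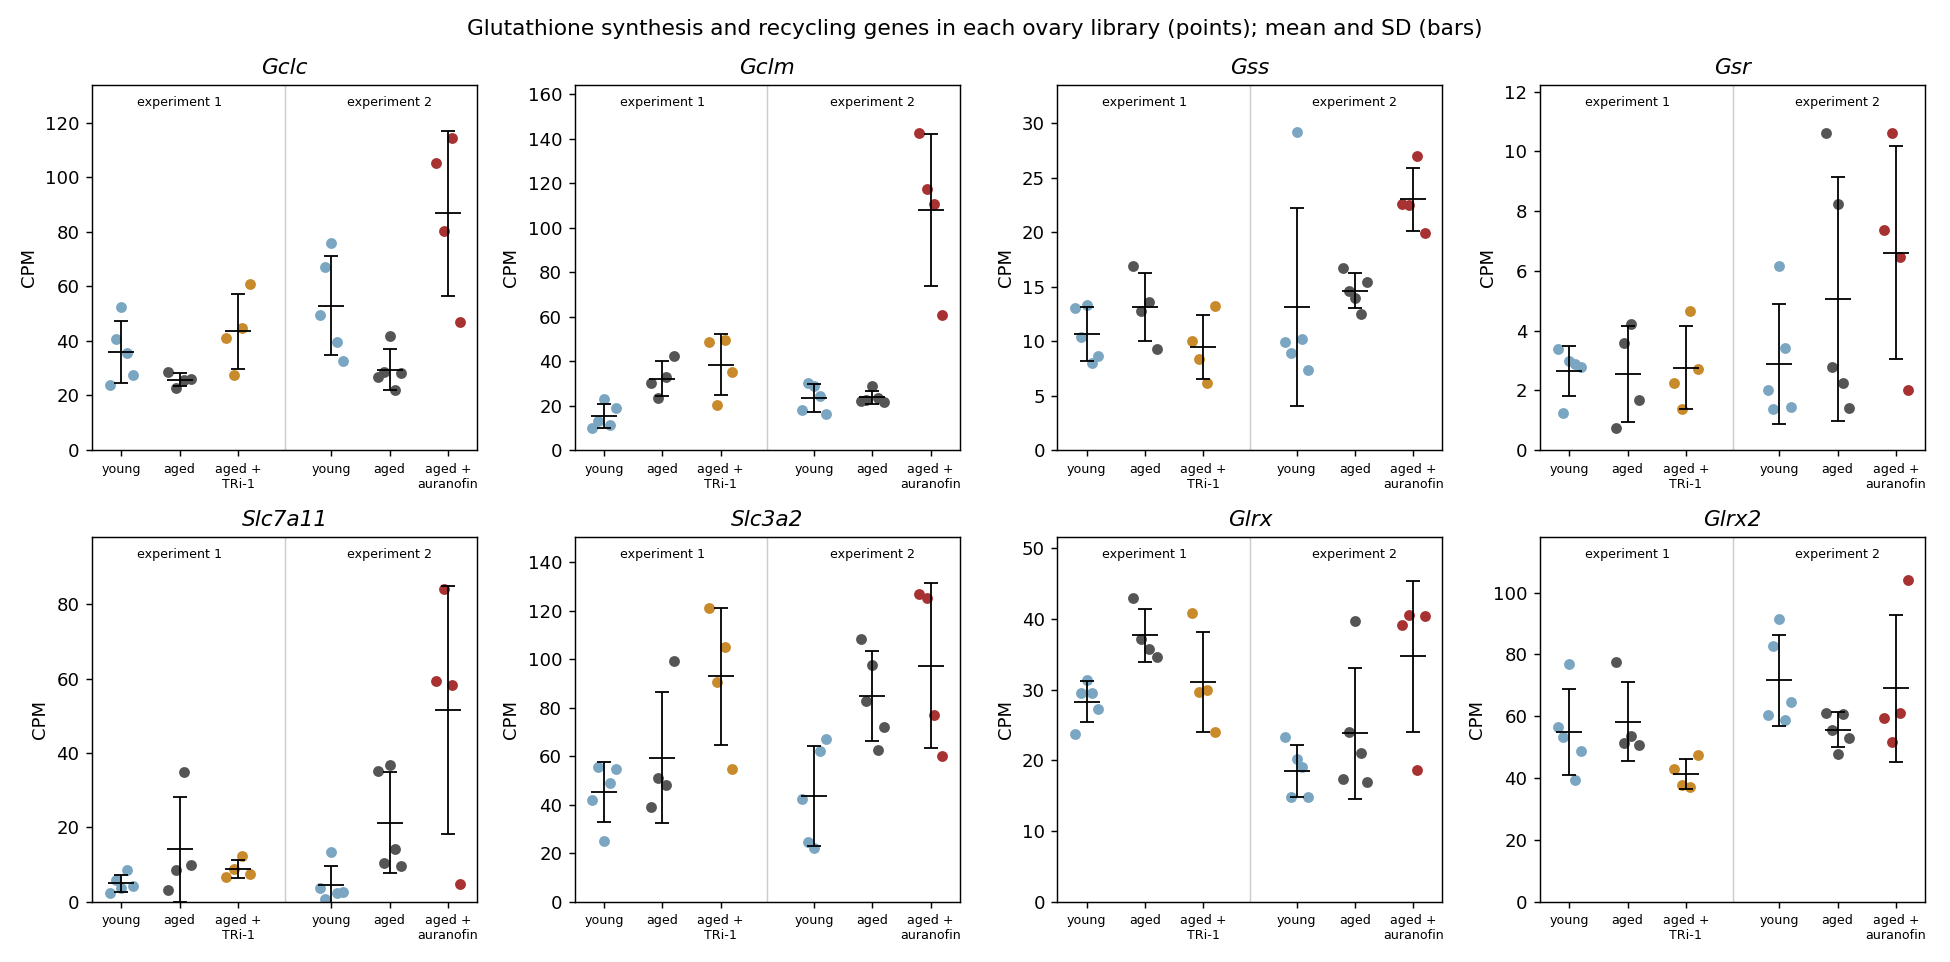
Level of each of the 8 genes (CPM, vertical axes starting at 0) in every library, grouped by experiment, age and treatment along the horizontal axes; bars show the mean and SD (lower bars stop at 0). In Gclm the 4 auranofin libraries, from 60.9 to 143 CPM, all lie above the 5 aged libraries of their experiment, and in Slc7a11 1 auranofin library, at 4.83 CPM, lies far below the other 3.

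Of the 8 genes, the modifier subunit of glutamate-cysteine ligase was the only one to pass the test with auranofin. Gclm (ENSMUSG00000028124, chromosome 3, 122245557 to 122270732, plus strand, GENCODE M21 on GRCm38) was at 22.1, 22.5, 28.7, 23.6 and 21.4 CPM in the aged ovaries of experiment 2 and at 143, 117, 111 and 60.9 CPM after auranofin. The groups did not overlap, and the lowest treated library was replicate 4. Gclm rose 4.53-fold with auranofin, a log2 fold change of 2.18 ± 0.26 (SE), with an adjusted p of 0.00197 by edgeR's quasi-likelihood test over 16309 genes. Only 3 genes in the whole table (0.0184%) passed that test, all higher. The other two were Hmox1, which encodes the haem-degrading enzyme haem oxygenase 1, at 4.12 ± 0.36, and Srxn1, which encodes the peroxiredoxin repair enzyme sulfiredoxin, at 2.42 ± 0.28. The Gclm call held in each of 9 fits that left out a library, between 2.02 and 2.38 on the log2 scale, with adjusted p values up to 0.0148. An overlapping transcript on the opposite strand, Gm17494, held 481 counts in all libraries against 11619 for Gclm.

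The catalytic subunit pointed the same way with a wider spread. Gclc (ENSMUSG00000032350, chromosome 9, 77754535 to 77794485, plus strand) was at 26.9, 28.5, 41.8, 21.9 and 28.4 CPM in the aged libraries of experiment 2 and at 105, 80.2, 114 and 46.9 CPM after auranofin. All treated values were above all aged values. Its log2 difference was 1.54 ± 0.30, the sixth smallest unadjusted p of the whole table (1.23e-04), but its adjusted p was 0.267 in edgeR. Gclc did pass under DESeq2 (adjusted p = 0.00341), under limma-voom with quality weights (0.00616) and in the edgeR fit of all 27 libraries together (0.0198). Over 10 alternatives the adjusted p ran from 0.00341 to 0.306. Auranofin libraries were above the aged ones also for glutathione synthetase, Gss (ENSMUSG00000027610, chromosome 2, 155563181 to 155592810, minus strand), with 22.6, 22.5, 26.98 and 19.97 CPM against 16.7, 14.6, 13.9, 12.5 and 15.4 CPM. These groups did not overlap either, but the log2 difference of 0.64 ± 0.34 did not pass (adjusted p = 0.757 by edgeR). Gss overlaps Acss2 on the opposite strand, which held 3120 counts against 3994 for Gss, and whether counting used strand is not given in the sources used here.

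Among the 8 genes, 3 (Gclc, Gclm and Gss) were thus higher in every auranofin library than in any aged library, against 1.99% of all genes tested. The log2 difference was above 0 in 8 of 8 genes, with a median of 0.59 against 0.02 over all genes tested. Only Gclm passed the test. Of the other genes, Slc7a11 differed by 1.28 ± 0.73 (95% interval -0.16 to 2.72), Glrx by 0.54 ± 0.29, Gsr by 0.37 ± 0.64, Glrx2 by 0.29 ± 0.22 and Slc3a2 by 0.19 ± 0.34, each with an adjusted p of 0.763 or more in edgeR. The B and plasma cell marker sum was 5607 to 14049 CPM in aged libraries of experiment 2. In auranofin libraries it was 606, 4180 and 1835 CPM in replicates 1 to 3, below every aged library, and 24344 CPM in replicate 4, above every one. The neutrophil sum was 299 to 3903 CPM in aged and 903 to 5711 CPM in auranofin libraries, and the adipocyte sum 375 to 2998 and 404 to 11301 CPM. None of the 13 marker lists had a gene past edgeR's test with auranofin. Only 3 of 16309 genes tested passed it, so that count cannot tell whether cell types changed. The part of these cells in the result was not tested. In whole tissue, fewer cells of a type and less RNA per cell cannot be told apart.

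With TRi-1, none of the 8 genes passed the test. In experiment 1, Gclm was at 29.9, 23.4, 33.0 and 42.3 CPM in the aged libraries and at 48.8, 20.2, 49.3 and 35.3 CPM in the TRi-1 libraries, which overlap. The log2 difference was 0.23 ± 0.31 (95% interval -0.38 to 0.84, adjusted p = 0.774 by edgeR). Gclc stood at 28.5, 22.9, 25.6 and 26.2 CPM without treatment and at 40.9, 27.5, 44.8 and 60.7 CPM with TRi-1, a log2 difference of 0.73 ± 0.26 that did not pass (adjusted p = 0.182). Its highest treated library, replicate 4, also had the highest granulosa marker sum, 1660 CPM against 145 to 213 CPM in the aged libraries. The part of granulosa cells in that value was not tested. By edgeR, 0 of the 8 genes passed, against 0.418% of 16028 genes tested; 2 had an unadjusted p under 0.05 (16.5% of all genes did), and DESeq2 and limma-voom called 0 as well. The Glrx2 groups did not overlap, with 77.5, 51.3, 53.7 and 50.6 CPM in aged and 43.0, 37.9, 37.1 and 47.3 CPM in TRi-1 libraries, whereas 4.57% of all genes were lower without overlap; its log2 difference was -0.51 ± 0.22 with an adjusted p of 0.240.

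The difference between the auranofin effect and the TRi-1 effect was tested in 1 fit of all 27 libraries. For Gclm the effect of auranofin exceeded that of TRi-1 by 1.93 ± 0.41 on the log2 scale, with an unadjusted p of 6.15e-05 and an adjusted p of 0.0896. It passed in DESeq2 (adjusted p = 0.00734), in limma-voom (0.00547) and in edgeR without replicate 4 of the auranofin group (2.09 ± 0.39, adjusted p = 0.0291). By edgeR 0 of the 8 genes passed, against 0.0172% of all genes; 4 had an unadjusted p under 0.05 (10.9% of all genes did), and DESeq2 and limma-voom each called 1. The differences for the other three were 1.12 ± 0.45 in Gss, 0.82 ± 0.35 in Glrx and 0.80 ± 0.31 in Glrx2, with adjusted p values of 0.365, 0.389 and 0.337. Compound and experiment cannot be told apart here, because each compound was given in 1 experiment only, and doses were not given in the sources used here.

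**Figure D2:**
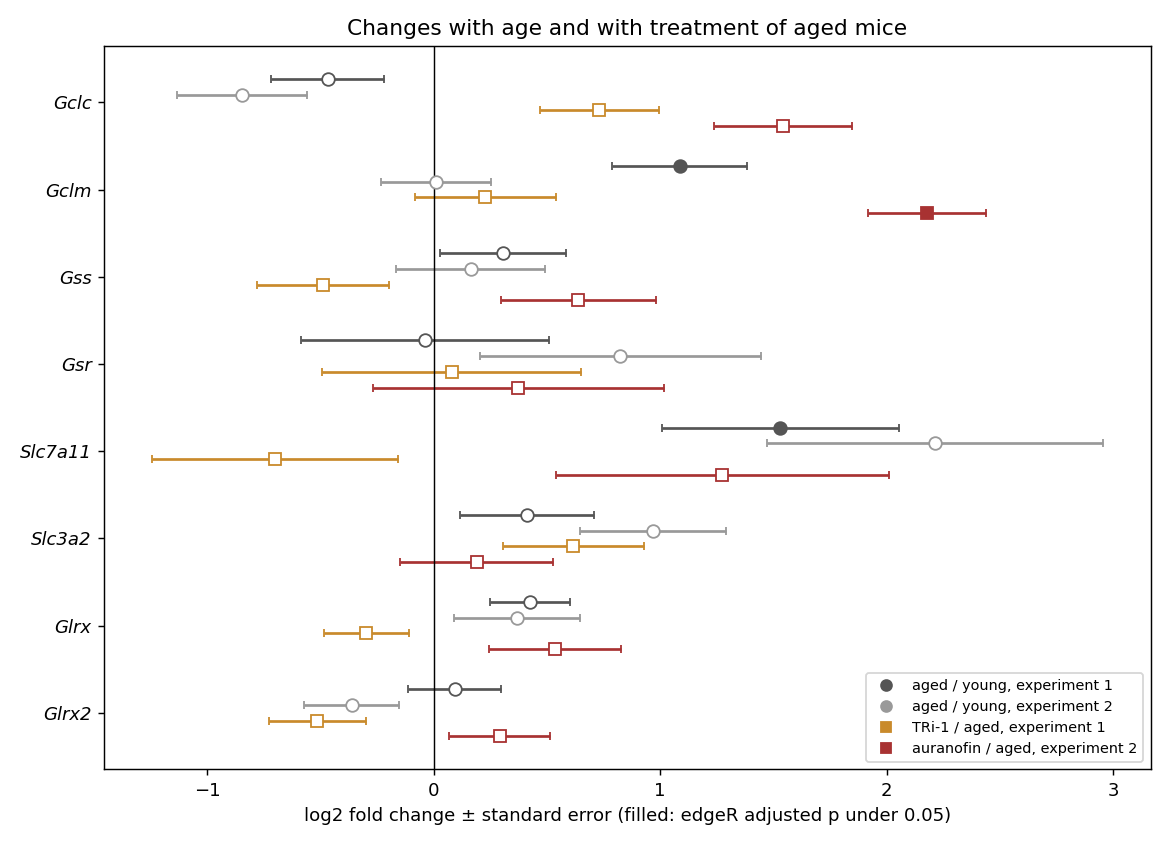
Log2 fold change (horizontal axis) with its standard error (bars) of each gene for aged against young ovaries in experiments 1 and 2 (circles) and for each treatment against untreated aged ovaries (squares); filled symbols have an edgeR adjusted p under 0.05. Filled symbols are Gclm with age in experiment 1, Slc7a11 with age in experiment 1 and Gclm with auranofin, at 2.18.

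Averaged over the experiments, the 2 ligase subunits changed with age in opposite directions. Gclc was lower in aged than in young ovaries in both experiments, with young values of 23.8, 40.6, 52.5, 35.6 and 27.4 CPM in experiment 1 and 49.5, 67.1, 75.9, 39.6 and 32.6 CPM in experiment 2. Young and aged values overlapped in each. The log2 difference was -0.47 ± 0.25 (adjusted p = 0.161) in experiment 1 and -0.85 ± 0.29 (adjusted p = 0.0783) in experiment 2, and neither passed alone in edgeR. In experiment 2, Gclc did pass under DESeq2 (adjusted p = 0.0352), in the fit of all 27 libraries (0.033) and without young replicate 5 (0.046). Averaged over both experiments, Gclc fell by 0.66 ± 0.20 on the log2 scale with age, with an adjusted p of 0.00967 in edgeR. That call held in each of 19 fits that left out a library (adjusted p up to 0.0254).

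Gclm instead rose with age in experiment 1 and did not pass the test in experiment 2. Young ovaries of experiment 1 had 10.1, 13.2, 23.0, 11.2 and 19.1 CPM, all below the aged libraries. The log2 fold change was 1.09 ± 0.30 with an adjusted p of 0.00998, and it held in all 9 fits that left out a library. In experiment 2 the young ovaries had 18.05, 30.1, 28.7, 24.2 and 16.2 CPM, which span the aged values, and the log2 difference was 0.01 ± 0.24 (95% interval -0.46 to 0.49). Its sign turned under DESeq2's size factors, under DESeq2, under a filter of 5 CPM and in some of the fits that left out a library, which gave -0.10 to 0.10. The 2 age effects differed by -1.06 ± 0.39, with an unadjusted p of 0.0109 and an adjusted p of 0.26. By edgeR 0 of the 8 genes passed this test of the difference, against 0% of all genes; 1 had an unadjusted p under 0.05 (11.8% of all genes did), and DESeq2 and limma-voom called 0. Averaged over experiments, Gclm was higher with age by 0.55 ± 0.19 (adjusted p = 0.0295). That averaged call was lost without experiment 1 young replicate 1, 2 or 4, experiment 1 aged replicate 3 or 4, experiment 2 young replicate 1 or 5 or experiment 2 aged replicate 3, with adjusted p values from 0.0529 to 0.108.

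Because both subunits were measured in the same libraries, the ratio of Gclm to Gclc counts needs no scaling between libraries. It was 0.315 to 0.697 (median 0.424) in young and 1.02 to 1.62 (median 1.17) in aged ovaries of experiment 1, and 0.364 to 0.612 (median 0.448) and 0.687 to 1.07 (median 0.789) in experiment 2. Young and aged ratios did not overlap in either experiment. With TRi-1 the ratio was 0.581 to 1.19 (median 0.919), and with auranofin 0.969 to 1.46 (median 1.33). The auranofin ratios lay above all young ratios of experiment 2 and overlapped the aged ones. The ratio was chosen after the levels had been seen and is given as a description with no test.

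**Figure D3:**
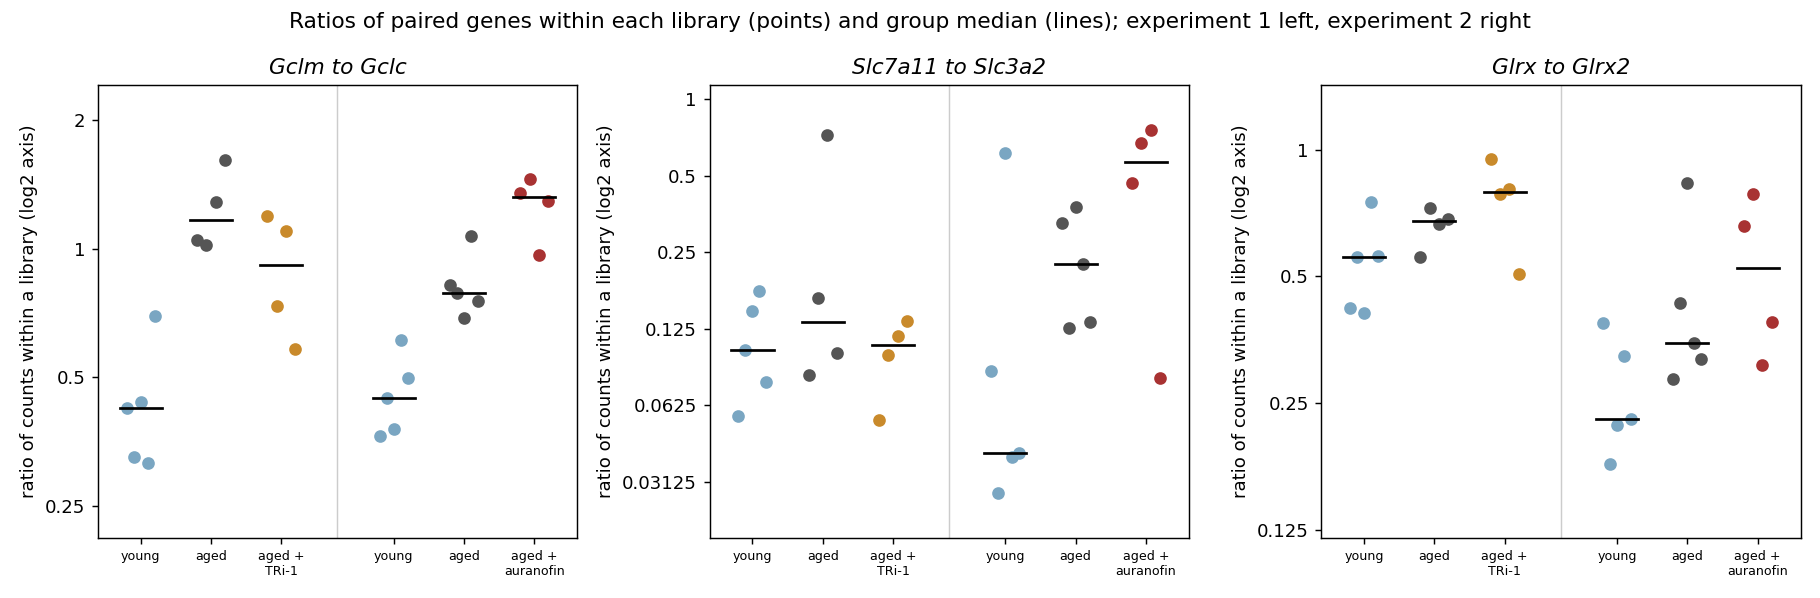
Ratio of counts between 2 genes within each library (points, log2 axes) with the group median (lines) for Gclm to Gclc, Slc7a11 to Slc3a2 and Glrx to Glrx2; the vertical line parts experiment 1 from experiment 2. The Gclm to Gclc ratio of every aged library is above that of every young library of its experiment.

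Gss did not pass the test with age in either experiment. Young ovaries of experiment 1 had 13.01, 10.4, 13.3, 8.01 and 8.61 CPM and aged ones 16.9, 12.8, 13.6 and 9.31 CPM, a log2 difference of 0.30 ± 0.28 (adjusted p = 0.421). In experiment 2 the young values were 9.93, 8.87, 29.2, 10.2 and 7.31 CPM, of which replicate 3 exceeded every aged value. The log2 difference was 0.16 ± 0.33 with all libraries and 0.69 ± 0.21 without young replicate 3, where the adjusted p went from 0.83 to 0.0452. Averaged over both experiments, the Gss age difference was 0.23 ± 0.22 (adjusted p = 0.435 by edgeR). Without that library the average was 0.49 ± 0.16 and passed (0.0196), as it did under limma-voom with all libraries (0.0443). With TRi-1, Gss was at 9.99, 8.38, 6.19 and 13.2 CPM, a difference of -0.49 ± 0.29 from the aged libraries (adjusted p = 0.425).

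Glutathione reductase had the fewest counts of the 8 and, with Slc7a11, the widest errors. Gsr (ENSMUSG00000031584, chromosome 8, 33652523 to 33698163, plus strand) had 1145 counts over all 27 libraries. Its levels were 1.24 to 3.39 CPM in young, 0.739 to 4.21 CPM in aged and 1.38 to 4.67 CPM in TRi-1 libraries of experiment 1, and 1.39 to 6.17, 1.39 to 10.6 and 2.00 to 10.6 CPM in young, aged and auranofin libraries of experiment 2. All groups overlapped within their experiment. No comparison passed, and the interval for auranofin against aged ran from -0.89 to 1.63 on the log2 scale.

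The 2 chains of the cystine carrier were both higher in aged ovaries when the experiments were averaged. Slc7a11 (ENSMUSG00000027737, chromosome 3, 49892526 to 50443614, minus strand), the light chain that carries cystine in exchange for glutamate, was at 2.38, 5.74, 3.71, 8.61 and 4.23 CPM in young and at 3.20, 8.47, 34.9 and 9.99 CPM in aged ovaries of experiment 1. Replicate 3 of the aged group was far above the other three, and the groups overlapped. The log2 fold change was 1.53 ± 0.52 (adjusted p = 0.0326). Without that library it was 0.54 ± 0.44 (adjusted p = 0.384). The call was also lost without young replicate 1, 2, 3 or 5 (adjusted p from 0.0521 to 0.0839), under limma-voom (0.0655), in a fit of these 2 groups alone (0.0587) and in the fit of all 27 libraries (0.107).

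In experiment 2, Slc7a11 was at 3.61, 0.693, 13.5, 2.43 and 2.72 CPM in young and at 35.2, 10.4, 36.7, 14.1 and 9.60 CPM in aged ovaries. Young replicate 3 was above 2 of the aged libraries. The log2 difference was 2.21 ± 0.74, which did not pass in edgeR (adjusted p = 0.0727). It passed without young replicate 3 (3.15 ± 0.72, adjusted p = 0.0108), in DESeq2 (0.0121), in limma-voom (0.0375), in a fit of these 2 groups alone (0.0477) and in the fit of all 27 libraries (0.0274). Averaged over the experiments the log2 fold change was 1.86 ± 0.49 with an adjusted p of 0.00368, and this call held in all 19 fits that left out a library.

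Slc3a2 (ENSMUSG00000010095, chromosome 19, 8706882 to 8723369, minus strand), the heavy chain that places the carrier in the membrane and also serves other light chains, was at 42.0, 55.6, 25.2, 49.1 and 54.7 CPM in young and at 39.0, 51.1, 48.2 and 99.2 CPM in aged ovaries of experiment 1. In experiment 2 it was at 42.5, 24.5, 22.0, 62.0 and 67.1 CPM in young and at 109, 83.0, 97.7, 62.7 and 72.1 CPM in aged ovaries, with overlap only between the highest young and the lowest aged library. The log2 differences were 0.41 ± 0.30 and 0.97 ± 0.32 (adjusted p = 0.298 and 0.0698), and their average, 0.67 ± 0.23, passed (adjusted p = 0.0238). In experiment 2, Slc3a2 passed under DESeq2 (0.0398), in the fit of all 27 libraries (0.0431) and without young replicate 5 (0.0414). Without experiment 1 aged replicate 4 the average was 0.45 ± 0.23 and did not pass (adjusted p = 0.149). That library also had the highest red blood cell marker sum of all 27, 283609 CPM, against 109110 to 163134 CPM in the other aged libraries of experiment 1, and the part of red cells in the result was not tested.

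Neither carrier gene passed a test against untreated aged ovaries after treatment. With TRi-1, Slc7a11 was at 6.66, 8.94, 12.3 and 7.38 CPM and Slc3a2 at 121, 90.7, 105 and 54.8 CPM. For Slc7a11 the log2 difference from aged was -0.70 ± 0.54, and 0.29 without aged replicate 3, so its direction rested on that library. For Slc3a2 it was 0.62 ± 0.31 (adjusted p = 0.336). With auranofin, Slc7a11 was at 59.3, 84.0, 58.3 and 4.83 CPM, with replicate 4 below every aged library and the other three above every one. Slc3a2 was at 127, 125, 76.9 and 60.1 CPM, which overlap the aged values. The ratio of Slc7a11 to Slc3a2 counts had a median of 0.0406 in young, 0.224 in aged and 0.568 in auranofin libraries of experiment 2. The medians were 0.103, 0.133 and 0.108 in young, aged and TRi-1 libraries of experiment 1. The groups overlapped within each experiment. In experiment 2 the aged ratios ran from 0.125 to 0.376. Young replicate 3, at 0.611, was above all of them, and auranofin replicate 4, at 0.0803, was below all of them.

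Neither glutaredoxin passed edgeR's test in any comparison with all libraries in the fit. Glrx (ENSMUSG00000021591, chromosome 13, 75839868 to 75850154, plus strand) was at 23.8, 29.6, 31.3, 29.5 and 27.3 CPM in young and at 43.0, 37.2, 35.8 and 34.7 CPM in aged ovaries of experiment 1, which did not overlap. The log2 difference was 0.42 ± 0.18 and its adjusted p 0.0741 in edgeR. In experiment 2, Glrx was at 23.4, 14.8, 20.2, 19.1 and 14.8 CPM in young, at 17.4, 24.0, 39.7, 21.1 and 16.9 CPM in aged and at 39.2, 40.6, 18.7 and 40.4 CPM in auranofin libraries. Replicate 3 was the only auranofin library within the range of the young group. Averaged over both experiments, the age difference of Glrx was 0.39 ± 0.17 (adjusted p = 0.07 by edgeR). It passed in edgeR without experiment 2 aged replicate 1 (0.0471) or replicate 5 (0.0445). Auranofin libraries exceeded young ones in Glrx by 0.90 ± 0.29 (adjusted p = 0.0666 by edgeR), which passed under 4 of 10 alternative settings. Glrx2 (ENSMUSG00000018196, chromosome 1, 143716338 to 143749676, plus strand) was at 39.3 to 76.8 CPM in young and 50.6 to 77.5 CPM in aged ovaries of experiment 1, and at 58.8 to 91.3, 47.7 to 61.0 and 51.6 to 104 CPM in young, aged and auranofin ovaries of experiment 2. Its age differences were 0.09 ± 0.20 and -0.36 ± 0.21, neither past the test.

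Read across the 8 genes, 2 (Gclm and Slc7a11) passed edgeR's test with age in experiment 1, both higher, against 18.5% of all genes called higher and 34.9% called in either direction. Without overlap and higher were 2 (Gclm and Glrx), against 14% of all genes. In experiment 2, 0 were without overlap, against 6.46% of all genes higher and 4.7% lower, and 0 passed against 10.5% of all genes; 3 had an unadjusted p under 0.05 (23.3% of all genes did), and DESeq2 called 3 and limma-voom 1. Over both experiments, 3 were higher and 1 (Gclc) lower, against 17.5% of all genes called higher and 17.8% lower (35.3% in all). The median log2 difference of the 8 was 0.36 in experiment 1 and 0.26 in experiment 2, against 0.02 and -0.03 over all genes tested.

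Marker genes of several cell types also moved with age. The summed level of 10 macrophage markers was 762 to 1212 CPM in young and 6587 to 12919 CPM in aged libraries of experiment 1, and 644 to 1405 and 4198 to 8603 CPM in experiment 2, with 9 of 10 markers higher in each. B and plasma cell markers rose in 8 of 8 in each experiment, and neutrophil markers in 5 of 6 and 5 of 9 tested. Red blood cell markers rose in 7 of 7 and 1 of 7 tested, from sums of 18429 to 90449 CPM in young to 109110 to 283609 CPM in aged libraries of experiment 1, without overlap. In experiment 2 the red cell sums overlapped, at 2416 to 48978 CPM in young and 11201 to 47500 CPM in aged libraries. Oocyte markers fell in 10 of 10 and in 7 of 9 tested, from sums of 162 to 317 CPM to 6.71 to 12.2 CPM in experiment 1, where Zp2 and Zar1 had no count in any aged library. Granulosa markers fell in 6 of 8 and 3 of 8 tested. Of all genes tested, 18.5% were called higher and 16.4% lower with age in experiment 1. In experiment 2 these shares were 5.86% and 4.59%. The part of these cells in the age differences of the 8 genes was not tested.

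Treated aged ovaries were also set against young ones, a comparison that shares its young libraries with the age comparison and its treated libraries with the treatment comparison. TRi-1-treated ovaries had more Gclm (1.31 ± 0.30, adjusted p = 0.00504) and more Slc3a2 (1.03 ± 0.29, adjusted p = 0.0202) than young ones, so 2 of 8 passed in edgeR, both higher, against 10.9% of all genes called higher and 21% in either direction. The Slc3a2 call was lost without TRi-1 replicate 1 (adjusted p = 0.0767) or replicate 3 (0.0586). Auranofin-treated ovaries had more Gclm (2.19 ± 0.26, adjusted p = 1.96e-04, no overlap), Slc7a11 (3.49 ± 0.79, an 11.2-fold difference, adjusted p = 0.0122) and Slc3a2 (1.16 ± 0.34, adjusted p = 0.0431), so 3 of 8 passed, all higher, against 5.42% of all genes called higher and 8.98% in either direction. Of all genes, 5.28% were higher without overlap, as Gclm was. Without young replicate 3 the Slc7a11 difference was 4.43 on the log2 scale (adjusted p = 0.00244). The Slc7a11 groups still overlapped, because auranofin replicate 4 was below young replicate 3. The Slc3a2 call was lost without young replicate 1, 2 or 3 or auranofin replicate 1, 2 or 3 (adjusted p from 0.0528 to 0.153). It was also lost under 5 of 10 alternative settings. Gss differed from young by 0.80 ± 0.34 (adjusted p = 0.167), and by 1.33 ± 0.22 without young replicate 3 (adjusted p = 0.0018). Gclc after auranofin was 0.70 ± 0.30 above young (adjusted p = 0.169).

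The levels in the 6 groups can be put in order, but the order spans both experiments, so that experiment and compound cannot be told apart in it. For Gclm the means ran from 108 ± 34.2 CPM with auranofin (SD, n = 4) through 38.4 ± 13.8 with TRi-1, 32.2 ± 7.87 and 23.7 ± 2.93 in the aged groups of experiments 1 and 2, and 23.4 ± 6.18 in young of experiment 2, to 15.3 ± 5.53 in young of experiment 1. Only the step from auranofin to TRi-1 separated neighbours without overlap. For Gclc they ran from 86.7 ± 30.2 with auranofin through 53.0 ± 18.2 in young of experiment 2, 43.5 ± 13.7 with TRi-1, 36.0 ± 11.4 in young of experiment 1 and 29.5 ± 7.37 in aged of experiment 2 to 25.8 ± 2.30 CPM in aged of experiment 1, and all neighbours overlapped. For Gss, auranofin (23.0 ± 2.91 CPM) stood apart from its neighbour, aged of experiment 2 (14.6 ± 1.61 CPM), and no lower pair of neighbours did. For Gsr, Slc7a11, Slc3a2, Glrx and Glrx2 all neighbours in the order overlapped. Glrx was highest in aged ovaries of experiment 1 (37.7 ± 3.69 CPM) and Glrx2 in young ovaries of experiment 2 (71.6 ± 14.6 CPM).

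Other genes of glutathione metabolism were counted in 7 lists, 1 of which holds regulators rather than metabolic genes. From these lists, 66 genes were tested in at least 1 comparison. With age in experiment 1, 18 rose and 4 fell of 63 tested, which is 34.9% and equals the share of all genes called. In experiment 2, 4 rose and none fell of 63 (6.35%), against 10.5% of all genes called and 5.86% called higher. Both counts include the regulators, which were called more often, so the share for the metabolic genes alone was smaller. In experiment 1 that share was below the share of all genes called. Neither treatment against aged ovaries moved any of them past edgeR's test. For TRi-1, 2 passed in DESeq2 and 0 in limma-voom, and for auranofin 1 and 0.

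Among glutathione-degrading enzymes, Dpep2, a membrane dipeptidase, rose with age in both experiments, by 2.53 ± 0.51 and 3.33 ± 0.57 on the log2 scale (adjusted p = 0.00124 and 0.00174). Oplah, which opens the 5-oxoproline ring, rose by 1.58 ± 0.22 in experiment 1, as did Anpep (2.02 ± 0.46) and Ggt5 (1.02 ± 0.29), so 4 of 10 tested rose there and 1 of 12 in experiment 2, against 18.5% and 5.86% of all genes called higher. Ahcy, the S-adenosylhomocysteine hydrolase, rose in both, by 0.79 ± 0.18 and 0.85 ± 0.17. It was the only 1 of 10 genes listed for methionine and cysteine metabolism to pass in each. Slc7a7, a different light chain of Slc3a2, rose by 1.74 ± 0.28 and 1.32 ± 0.23.

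Of 11 regulator genes, 6 rose and 2 fell with age in experiment 1, where 34.9% of all genes were called. Nfe2l2, which encodes NRF2, fell by 0.77 ± 0.28 (adjusted p = 0.0444) and Nfe2l1 fell by 0.77 ± 0.16. The Nfe2l2 call was lost in 2 of 9 alternative settings. Its difference was -0.20 ± 0.28 in experiment 2 and -0.49 ± 0.20 averaged over both, neither past edgeR's test (adjusted p = 0.733 and 0.0609). Bach1, a repressor at NRF2 sites, rose by 1.36 ± 0.24 and Atf4 by 1.30 ± 0.22. Maff, a small MAF partner of NRF2, rose in both experiments, by 1.76 ± 0.32 and 2.28 ± 0.37, and was the only regulator to pass in experiment 2. In auranofin-treated aged against young ovaries, a comparison that includes age, Maff was higher by 3.09 ± 0.39, Mafk by 1.41 ± 0.34 and Mafg by 1.08 ± 0.27. Their edgeR adjusted p values were 2.86e-04, 0.0165 and 0.0201, where 5.42% of all genes were called higher. Of 10 alternative settings, 2 lost the Mafk call and 1 the Mafg call. Against untreated aged ovaries the differences were 0.80 ± 0.36, 1.05 ± 0.34 and 0.65 ± 0.27, and none passed (edgeR adjusted p = 0.685, 0.498 and 0.634).

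**Figure D4:**
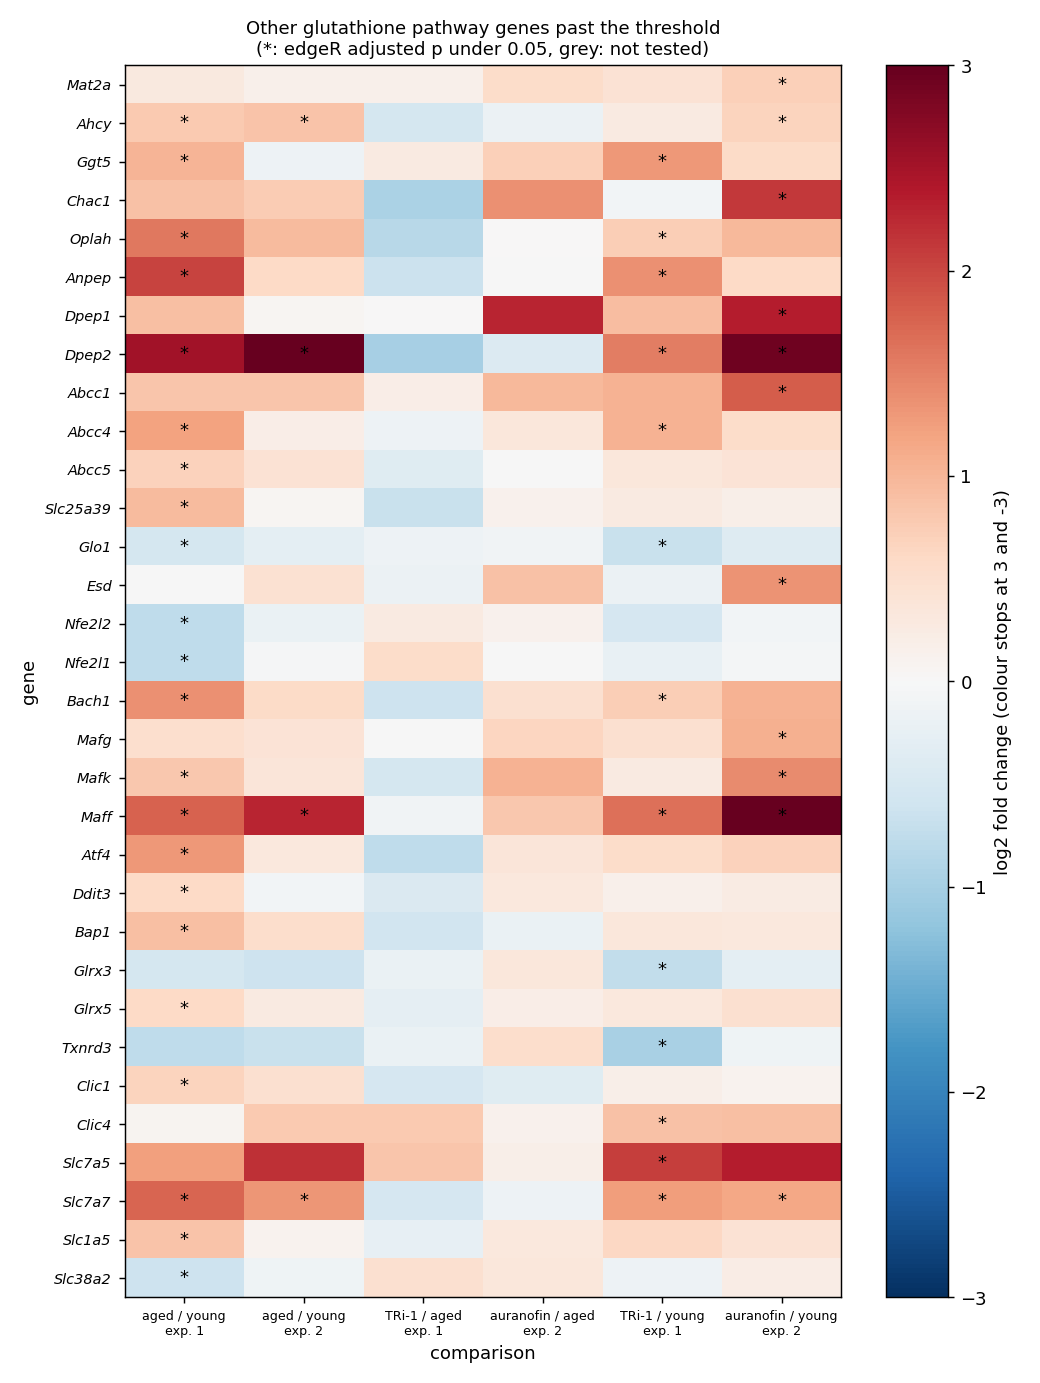
Log2 fold change (colour, stopping at 3 and -3) of the 32 other pathway and regulator genes that passed edgeR's test in at least 1 of 6 comparisons (columns). Stars mark an adjusted p under 0.05 and grey marks genes not tested. The columns for TRi-1 and auranofin against untreated aged ovaries hold no star.

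Likeness of pattern was measured as the root mean square distance between genes of log2 CPM, centred within each experiment, over 27 libraries and 10747 genes. Closest to Gclm were Pgd, an NADPH-producing enzyme of the pentose phosphate pathway, at 0.562, and Pdgfc at 0.565, where the median gene was at 1.03. Closest to Gclc were Eps8 (0.379) and Pak2 (0.418), to Gss Nme1 (0.309) and Slco2a1 (0.312), and to Gsr Gtpbp2 (0.504) and Ptk2 (0.547). Closest to Slc7a11 were Junb (0.767) and Steap1 (0.769) with a median gene at 1.59, to Slc3a2 Blvrb (0.298) and Picalm (0.304), to Glrx Nras (0.303) and Leprotl1 (0.307), and to Glrx2 St13 (0.179) and Ndufs6 (0.194). The distances share libraries, depth and group differences, and are descriptions.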

How the data were processed

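Ovary libraries were 3' end RNA-seq (QuantSeq, per the labels' protocols). The authors deposited 1 table of whole-number counts per Ensembl gene; per the submitters' processing notes it involved RSEM 1.2.3, DESeq2 and mm10, with no role given for each. The annotation and strand setting used for counting are not given in the sources used here. Of 51789 identifiers, 51596 matched GENCODE M21. All 27 columns matched a sample by name.

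Counts as deposited were tested with edgeR 4.0.16 (R 4.3.3; TMM, filterByExpr, quasi-likelihood F test, 1 mean per group), separately in the 13 libraries of experiment 1 and the 14 of experiment 2, and in all 27 for the average age effect and the differences between effects. Adjusted p is Benjamini-Hochberg over all genes tested, with a threshold of 0.05. Values are log2 fold change ± SE. Intervals are nominal 95% from a normal approximation, 1.96 SE to each side, and are narrower than the F test implies. Count totals ranged from 6460903 to 14814381 per library, and low genes such as Gsr are correspondingly imprecise. No 2 of 48 within-group library pairs were identical. DESeq2 1.42.0, limma-voom 3.58.1, other filters and scalings, a replicate block and leaving out libraries were alternatives. The statistics were tested on simulated data.

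The 8 genes and all lists were chosen with earlier results of these data known. The 8 are always named; other pathway genes are named where they passed in at least 1 comparison within an experiment or in the age average; likeness names the 2 nearest genes averaging 5 CPM or more. Hmox1 and Srxn1, outside that rule, were named after their values were seen. Replicate numbers are not known to pair libraries, and the main tests did not use them as pairs. With same-numbered libraries compared over groups, some but not all correlations exceeded 0.1. Differently numbered libraries were not set beside them, so this cannot decide whether the numbers pair libraries.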

Additional observations from a re-analysis of the deposited data

Results flagged for a closer look

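In 48 gene and group combinations of 4 or more libraries, 5 had a library far from the others of its group; about 1 in 20, or 2.4, would be flagged by chance. Gss in young replicate 3 of experiment 2 was at 29.2 CPM, against 7.31 to 10.2 CPM in the other four. Slc7a11 in the same library was at 13.5 CPM, against 0.693 to 3.61 CPM, and this library also had the lowest oocyte and luteal marker sums of its group (4.11 and 42.5 CPM). Gsr in young replicate 2 of experiment 1 was at 1.24 CPM, against 2.77 to 3.39 CPM. Glrx in auranofin replicate 3 was at 18.7 CPM, against 39.2 to 40.6 CPM, and that library had the lowest macrophage marker sum of its group, 1392 CPM. Glrx2 in aged replicate 1 of experiment 1 was at 77.5 CPM, against 50.6 to 53.7 CPM. The part of those cell markers in the values was not tested.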

How the results depend on the processing

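Over 642 values of the 8 genes under other settings, 591 kept direction and side of the threshold, 12 lost the call, 26 gained it and 13 turned sign; over 872 values with a library left out, these were 810, 22, 10 and 30. The number of the 8 genes called with age in experiment 1, 2, was 1 under limma-voom, with a replicate block, with only the groups compared, with all 27 libraries in 1 fit and without the 3 libraries high in hepatocyte markers. In experiment 2, 0 became 3 under DESeq2, 1 under limma-voom, 2 with a replicate block, 1 with only the groups compared, 3 in the fit of all 27 libraries and 1 without the 2 libraries low in luteal markers. For auranofin, 1 became 2 under DESeq2, limma-voom and the fit of all 27 libraries. Against young, 3 became 6 under limma-voom, and over 10 alternatives the number ran from 2 to 6. For the difference between treatments, 0 became 1 under DESeq2 and limma-voom. With age over both experiments, the number ran from 3 to 6 over 8 alternatives. For TRi-1 against young, 2 became 1 without the hepatocyte-high libraries. Leaving out 1 library gave 1 to 2 called with age in experiment 1, 0 to 2 in experiment 2, 2 to 5 over both, 0 to 0 for TRi-1, 1 to 2 for TRi-1 against young, 1 to 1 for auranofin, 2 to 3 for auranofin against young, 0 to 1 for the treatment difference and 0 to 0 for the age difference. Signs turned for the age difference of Glrx (0.026 with a replicate block) and Gss (0.36 under limma-voom, 0.026 with a replicate block, 0.39 without the luteal-low libraries), for Gclm with age in experiment 2 (-0.018 under RLE size factors, -0.016 under DESeq2, -0.027 at 5 CPM or more), for Glrx2 with auranofin without replicates 3 and 4 (-0.014) and against young without the luteal-low libraries (0.048), for Gsr in the treatment difference (-0.18) and Slc7a11 with TRi-1 (0.41) and Glrx against young with TRi-1 (-0.041) without the hepatocyte-high libraries, and for Gsr in TRi-1 against young with a replicate block (-0.052). Leaving out 1 library turned the age difference of Glrx (-0.31 to 0.056) and Gss (-0.29 to 0.39), experiment 1 age in Glrx2 (-0.063 to 0.25) and Gsr (-0.42 to 0.26), experiment 2 age in Gclm (-0.10 to 0.10), auranofin against young in Glrx2 (-0.35 to 0.032), the treatment difference in Gsr (-0.10 to 0.74), TRi-1 in Gsr (-0.26 to 0.46) and Slc7a11 (-1.03 to 0.29), and TRi-1 against young in Glrx (-0.024 to 0.22) and Gsr (-0.34 to 0.26). The cause was not tested. Genes called over the whole table moved for TRi-1 from 67 to 587 under DESeq2, 167 without a filter, 173 at 5 CPM or more, 1 with a replicate block, 2 in the fit of all 27 libraries and 0 with only the groups compared or without the hepatocyte-high libraries, and for auranofin from 3 to 76 under DESeq2, 33 under limma-voom, 11 with a replicate block and 10 in the fit of all 27 libraries. Against young, TRi-1 calls went from 3371 to 2229 with a replicate block and 1975 without the hepatocyte-high libraries, and auranofin calls from 1464 to 2329 under DESeq2, 2677 under limma-voom, 733 with only the groups compared and 2398 in the fit of all 27 libraries. Age calls in experiment 2 went from 1705 to 2642 under limma-voom, the age difference from 0 to 172 under DESeq2, 33 under limma-voom, 6 at 5 CPM or more and 1 without the luteal-low libraries, and the treatment difference from 3 to 93 under DESeq2, 30 under limma-voom and 5 both at 5 CPM or more and without the luteal-low libraries. The sets of libraries high in hepatocyte or low in luteal markers, and auranofin replicates 3 and 4, were chosen after seeing the data. Replicate numbers are not known to pair libraries. Of same-numbered pairs, 0 of 4 in experiment 1 exceeded a correlation of 0.1 for each pair of groups. In experiment 2 these were 2 of 4, 2 of 5 and 2 of 4, with a highest correlation of 0.433. At 1145 counts in all, Gsr could not show small differences.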
